A study of Mus musculus with 2 samples.

Results

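The Mir130 and Mir301 family of mouse microRNA genes was described in heart tissue, as the 4 genes whose Ensembl identifiers map to Mir130a, Mir130b, Mir301 and Mir301b in the GENCODE M21 annotation of build mm10, out of 2202 microRNA genes counted. All 4 were found in both count tables. Small RNA (size range below 30 on the label, with no unit) of the heart was sequenced from adult female 5xFAD/CAST mice, 8 to 10 months old. The design held 1 group of 2 libraries, biological replicates 1 and 2, with no control. 5xFAD is known as a transgenic model of Alzheimer disease whose transgenes are driven by the neuronal Thy1 promoter, and CAST is an inbred mouse strain of wild origin. The transgene genotype of these mice and the number of animals per library are not known from the labels, which give the libraries a common donor identifier. Their spread, and every p-value here, may therefore be technical.

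MicroRNAs guide Argonaute proteins to messenger RNAs mainly through the seed, the bases near the 5′ end that pair with the target, and genes with the same seed are grouped as a family because they can pair with the same sites. The miR-130 and miR-301 family is known from vessels. In human endothelial cells miR-130a promotes angiogenesis by repressing the homeobox genes GAX and HOXA5, and in the pulmonary vessels the family acts through repression of the nuclear receptor PPARγ and is raised in pulmonary hypertension.

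The mature sequences are shown because the seed is what joins the family, and because the bases after it decide whether a read can be told apart from its relatives. RefSeq, build GRCm38.p6, lists the 3′ arm of 3 members. Capitals mark bases 2 to 8 from the 5′ end, which are the same in all of them.
miR-130a-3p: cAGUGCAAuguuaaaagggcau
miR-130b-3p: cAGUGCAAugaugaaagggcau
miR-301a-3p: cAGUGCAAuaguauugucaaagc
For Mir301b the hairpin is printed after that of Mir301, with the same 7 letters in capitals.
Mir301: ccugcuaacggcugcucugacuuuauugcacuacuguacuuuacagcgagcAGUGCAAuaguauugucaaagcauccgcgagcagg
Mir301b: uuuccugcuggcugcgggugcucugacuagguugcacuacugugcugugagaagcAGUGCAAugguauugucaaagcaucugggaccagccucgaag

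The members fall into 2 pairs by sequence. The 22 bases of miR-130a-3p differ from the matching stretch of the Mir130b hairpin at 2 positions, U11A and A13G, counted from 1 at the 5′ end of the arm with the base of miR-130a-3p first. The 23 bases of miR-301a-3p differ from the matching stretch of the Mir301b hairpin, bases 55 to 77, at 1 position, A10G. Every base that follows in the arm is the same, and the longest run shared by these hairpins is 16 bases. On the 5′ arm the Mir301 pair alone shares these bases. miR-301a-5p and miR-301b-5p have the same bases 2 to 8, CUCUGAC, and miR-130a-5p (CUCUUUU) and miR-130b-5p (CUCUUUC) differ from them and from each other. Reads were counted per gene, so the arms were not separated.

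By position the grouping is another one. Mir130b (chr16:17124061-17124142, minus strand) and Mir301b (chr16:17124400-17124496, minus strand) are neighbours, 257 bases apart, in an intron of the protein-coding gene 2610318N02Rik. Mir301 (chr11:87113004-87113089, plus strand) lies in an intron of Ska2, which encodes a subunit of the complex that links spindle microtubules to kinetochores. Mir130a (chr2:84741115-84741178, minus strand) is intergenic, with the nearest other microRNA gene 186895 bases away. No annotated gene of the opposite strand overlaps any of the 4.

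The libraries had 4186560 reads assigned to microRNA genes in replicate 1 and 2877511 in replicate 2. The tables leave out of the genes every read that fitted several loci, a share of 42.4% in replicate 1 and 43.2% in replicate 2. The heart label was met by its markers: Mir499 and Mir208a, which lie in myosin heavy chain genes, stood at 4202 ± 826 and 1356 ± 399 counts per 1000000 assigned reads (CPM; SD, n = 2).

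Mir130a supplied nearly all of the family's reads, Mir130b and Mir301 were minor members, and Mir301b had none. The mature arms are 22 or 23 bases long, so levels of the members were compared without scaling to length. Together the family had 7877 counts in replicate 1 and 4360 in replicate 2, or 0.188% (exact Clopper-Pearson 95% interval 0.184 to 0.192) and 0.152% (0.147 to 0.156) of the assigned counts, a mean of 0.170% ± 0.0259 (SD, n = 2). Mir130a made up 93.9% of the family's counts in replicate 1 and 97.5% in replicate 2. Intervals and the limits for genes with 0 counts come from the counts alone, with no spread between libraries, and so cover counting error only. Reads were counted without molecular identifiers, so copies of 1 molecule count separately.

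Mir130a (ENSMUSG00000065484.1) had 7398 counts, 1767 CPM, in replicate 1 and 4249 counts, 1477 CPM, in replicate 2. Its mean level of 1622 ± 205 CPM (SD, n = 2) placed it at rank 47 of the 2202 genes, and its rank was 44 in replicate 1 and 48 in replicate 2. The genes next to it in order were Mir423 above, with 1719 ± 545 CPM, and Mir29c below, with 1615 ± 956 CPM (SD, n = 2). These neighbours were picked as next in mean level, so their closeness to Mir130a follows from the choice.

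Mir301 (ENSMUSG00000065589.1), the gene of miR-301a, had 388 counts in replicate 1 and 25 in replicate 2. This is 92.7 CPM (exact Poisson 95% interval 83.7 to 102) in replicate 1 and 8.69 CPM (5.62 to 12.8) in replicate 2. Its rank was 137 in replicate 1 and 264 in replicate 2. The mean of 50.7 ± 59.4 CPM (SD, n = 2), at rank 165, therefore describes neither library.

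Mir130b (ENSMUSG00000065572.1) had 91 counts in replicate 1 and 86 in replicate 2, which is 21.7 CPM (exact Poisson 95% interval 17.5 to 26.7) and 29.9 CPM (23.9 to 36.9). Its mean was 25.8 ± 5.76 CPM (SD, n = 2), at rank 208. By the mean levels Mir301 came before Mir130b, but the order was turned round between the libraries, and the 2 genes did not differ beyond the spread of Mir301. The genes next to Mir130b were Mir8112 above, with 25.8 ± 4.77 CPM, and Mir192 below, with 25.7 ± 26.5 CPM (SD, n = 2). Next to Mir301 stood Mir34c above, with 52.7 ± 34.6 CPM, and Mir302d below, with 49.8 ± 62.3 CPM (SD, n = 2). These neighbours too were picked by mean level, so their closeness to the member is no separate result.

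Mir301b (ENSMUSG00000076288.1) had 0 counts in both libraries, which allows a level of up to 0.717 CPM in replicate 1 and 1.04 CPM in replicate 2, taking 3 counts per library as the limit. The observed count of Mir130b, its neighbour in the same intron, was 30.3-fold the limit of 3 counts in replicate 1 and 28.7-fold in replicate 2. These folds leave out the counting error of Mir130b. The comparison covers only reads unique to a locus. It sets no upper limit on the microRNA of Mir301b itself, whose 3′ arm stretch differs from miR-301a-3p at 1 base. How many of the unassigned reads belong to these genes was not measured. The counts of Mir301 and Mir301b are therefore uncertain as a split of the pair.

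**Figure D1:**
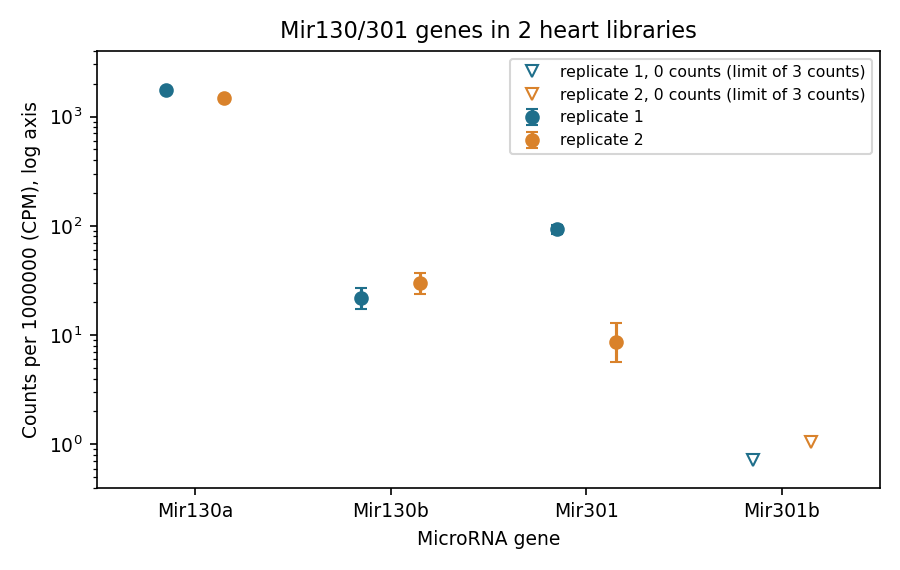
Level of each of the 4 family genes in CPM on a log axis, with replicate 1 left of replicate 2; bars are exact Poisson 95% intervals (hidden behind the point for Mir130a), and open triangles mark the limit of 3 counts for a gene with 0 counts. Mir130a stands near 1767 and 1477 CPM, Mir301 at 92.7 and 8.69 CPM, and Mir301b has no count.

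The seed itself is held by other annotated genes, which are shown because they would belong to the family by seed alone. Of the 1738 mature sequences in the RefSeq table, 7 have the letters AGUGCAA at bases 2 to 8: the 3 members listed above and 4 others.
miR-130c: cAGUGCAAuguuccaaggugug
miR-721: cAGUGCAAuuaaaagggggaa
miR-6341: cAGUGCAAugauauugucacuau
miR-6389: cAGUGCAAuguuaaacuuugc
Mir130c, Mir721, Mir6341 and Mir6389 each had 0 counts in both libraries. The hairpin of Mir6389 shares a run of 17 bases with that of Mir130a, the longest that Mir130a shares with any hairpin in the table. Among genes with this seed, the reads unique to a locus thus came from Mir130a, Mir130b and Mir301.

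The members did not keep a common ratio between the libraries. A filter on low counts kept 309 genes, each with a minimum level in both libraries. Each was tested with an exact two-sided binomial test against counting error, given totals scaled with edgeR's trimmed mean of M values (TMM). Log2 ratios are replicate 1 over replicate 2, and adjusted p-values follow Benjamini-Hochberg over the 309 genes. The test compares 2 libraries of the same group and not conditions. Of the 4 members, 3 passed the filter and Mir301b did not. All 3 passed the test, Mir130a and Mir301 as higher in replicate 1 and Mir130b as lower. Across all genes tested, 63.4% passed, 28.2% as higher and 35.3% as lower in replicate 1, so passing is common here and the size of the difference is what separates the members.

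Mir301 had a log2 ratio of 3.34 (exact 95% interval 2.76 to 3.99, adjusted p = 7.15e-55), a 10.2-fold higher scaled level in replicate 1. It ranked 2 among the 309 genes by how far it was higher in replicate 1, and 4 by the size of the ratio in either direction. The filter leaves out genes that are low in 1 library, so these ranks hold among tested genes only. Mir302a, with 10 and 482 counts in replicates 1 and 2, and Mir302b, with 6 and 394, differed more but were not tested. The median size over all genes tested was 0.51 on the log2 scale. Among the 75 other tested genes within 2-fold of its mean level, 3 had a ratio of this size or larger in either direction. Mir302a and Mir302b, also within 2-fold of that level, are not in this count. The size was thus uncommon among the tested genes of like mean level, which need not have its depth in either library. This comparison, made for Mir130a and Mir130b as well, was chosen after the values were seen.

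Mir130a had a log2 ratio of 0.19 (exact 95% interval 0.13 to 0.24, adjusted p = 3.50e-11), or 1.14-fold. Its size ranked 242 of 309, below that of most genes tested. Of the 30 other tested genes within 2-fold of its mean level, 26 differed by at least as much. The abundant member was thus among the steadier genes of the table, although its depth put the small difference past counting error.

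Mir130b had a log2 ratio of -0.53 (exact 95% interval -0.97 to -0.09, adjusted p = 0.0277), ranking 152 of 309 by size. Of the 78 other tested genes within 2-fold of its mean level, 38 differed by at least as much. The call ended when libraries were scaled by plain totals (log2 ratio -0.46, adjusted p = 0.0606), when every gene with a count was tested (-0.41, adjusted p = 0.164) and with counts that ignore strand (-0.48, adjusted p = 0.0518).

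**Figure D2:**
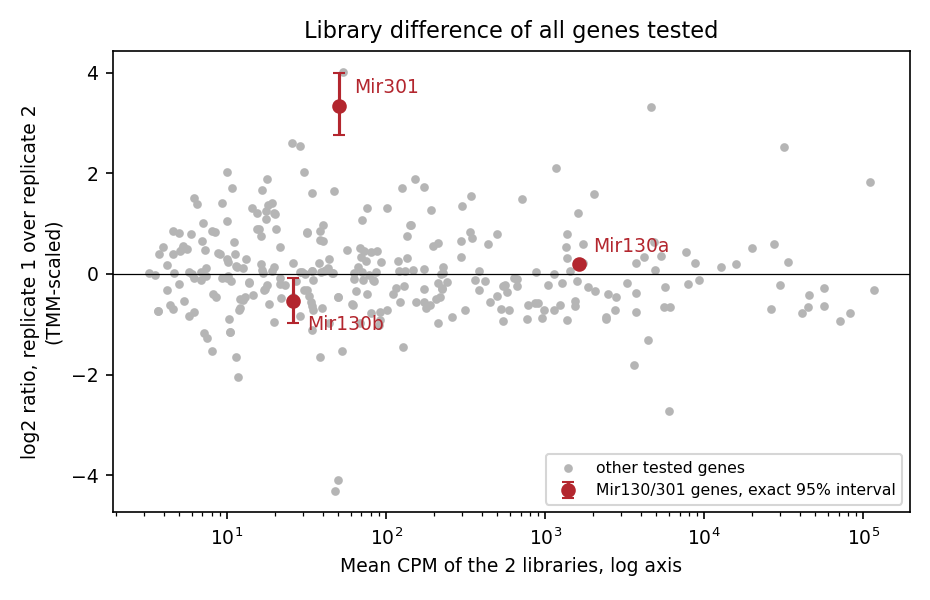
Each point is 1 of the 309 genes tested, with its mean CPM of the libraries on a log x axis and its TMM-scaled log2 ratio of replicate 1 over replicate 2 on the y axis; red points are the family's genes with exact 95% intervals. Mir301 stands at 3.34, near the top edge, while Mir130a at 0.19 and Mir130b at -0.53 lie within the cloud.

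Ratios between members within a library do not depend on scaling. They are built from the same counts as the log2 ratios, so the same split follows and is no separate result. Mir130b over Mir301 was 0.235 in replicate 1, with an exact 95% interval of 0.185 to 0.295, and 3.44 in replicate 2, with one of 2.18 to 5.61. In replicate 1 Mir301 was thus the second member of the family, with 4.93% of its counts against 1.16% for Mir130b. In replicate 2 Mir130b was second, with 1.97% against 0.573% for Mir301.

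Mir130a over Mir301 was 19.1 in replicate 1, with an exact 95% interval of 17.2 to 21.2, and 170 in replicate 2, with one of 115 to 263. Mir130a over Mir130b moved far less, with 81.3 in replicate 1 (66.1 to 101) and 49.4 in replicate 2 (39.9 to 61.9). The Mir130 genes thus stayed closer in ratio than either did to Mir301. They share 20 of 22 bases of the 3′ arm and lie on different chromosomes, and a link of either trait to the ratio was not tested. Of 6 pairs compared, Fisher's exact test found unequal ratios between the libraries for these 3, with p-values adjusted over the 6 pairs of 8.10e-31 for Mir130b over Mir301, 5.64e-46 for Mir130a over Mir301 and 0.00243 for Mir130a over Mir130b. The other 3 pairs contain Mir301b and had no ratio.

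**Figure D3:**
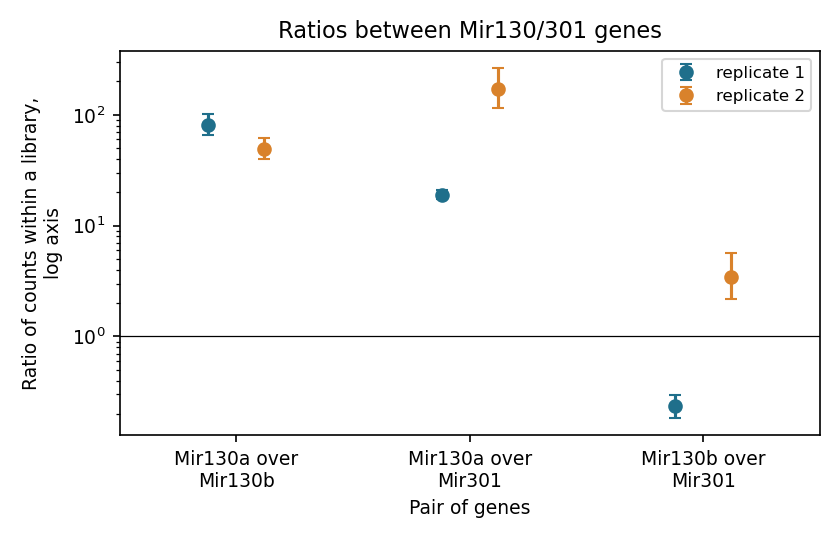
Ratio of the counts of a pair of members within each library, on a log axis, with replicate 1 left of replicate 2 and exact 95% intervals as bars; the line marks equal counts. Mir130b over Mir301 lies below the line in replicate 1 (0.235) and above it in replicate 2 (3.44).

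The genes most like each member were taken by the distance between levels in log2(CPM + 0.5) over the 2 libraries, which is a description from 2 points. Nearest to Mir130a were Mir27a, at a distance of 0.14, Mir10a at 0.23 and Mir92-1 at 0.25. Mir27a had 1916 CPM in replicate 1 and 1562 CPM in replicate 2. Nearest to Mir130b were Mir8112 at 0.06, Mir32 at 0.27 and Mir450b at 0.29.

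Mir301 had no neighbour as close. The nearest were Mir215 at 0.53, Mir200b at 0.91 and Mir340 at 0.98. Mir215 and Mir200b are known from gut and kidney and from epithelium. Mir215 had 421 counts in replicate 1 and 17 in replicate 2, and it was the gene above Mir301 in the order of ratios, with a log2 ratio of 4.02. The distance uses the same 2 levels as the ratio, so a like ratio follows from it.

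Markers of other cell types also differed between the libraries, and their part in the ratio of Mir301 was not tested. Of all 309 genes tested, 28.2% passed as higher in replicate 1 and 35.3% as lower, so a marker that passes is common. In whole tissue, fewer cells of a type and less RNA per cell cannot be told apart. Epithelial genes (Mir200a, Mir200b, Mir200c, Mir141, Mir429) summed to 114 CPM in replicate 1 and 58.7 CPM in replicate 2. Of the 3 tested, 1 passed as higher in replicate 1, Mir200b, with 49.2 CPM there and 7.99 CPM in replicate 2. The list did not move as one. In replicates 1 and 2, Mir200a had 8.84 and 2.09 CPM and Mir429 13.6 and 8.34 CPM. Mir200c had 40.4 and 37.5 CPM, and Mir141 had 2.15 and 2.78 CPM. The erythroid genes Mir144 and Mir451a summed to 755 CPM in replicate 1 and 230 CPM in replicate 2, and both were higher in replicate 1. The cardiomyocyte genes Mir208a, Mir208b and Mir499 summed to 6466 CPM in replicate 1 and 4715 CPM in replicate 2, with 3 of 3 higher in replicate 1. All 5 leukocyte genes (Mir142, Mir150, Mir155, Mir223, Mir342) were lower in replicate 1, summing to 5998 CPM there and to 8349 CPM in replicate 2. No marker of these lists was at 0 in either library.

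Genes named with the family in vessels did not share a direction, and no member can be placed in a vessel cell from whole tissue. The endothelial list summed to 176135 CPM in replicate 1 and 49984 CPM in replicate 2, of which Mir126a gave 174314 and 46780 CPM. Of its 3 genes, Mir126a, which lies in the endothelial gene Egfl7, was higher in replicate 1 (log2 ratio 1.83), and Mir221 (-0.89) and Mir222 (-0.73) were lower. The smooth muscle genes Mir143 (log2 ratio -0.77) and Mir145a (-1.82) were both lower in replicate 1, with sums of 32911 CPM there and 56334 CPM in replicate 2. The median log2 ratio was -0.73 for the endothelial list and -1.30 for the smooth muscle list, beside -0.01 for all genes tested. Of all genes tested, 63.4% passed in either direction.

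The microRNAs that are known to act downstream of this family and PPARγ in pulmonary vessels are miR-204 in smooth muscle and, in endothelium, miR-424 and miR-503, whose mouse genes are Mir322 and Mir503. Mir322 was more abundant than any member of the family in both libraries, with 3133 CPM in replicate 1 and 3397 CPM in replicate 2. Mir204 had 65.0 CPM in replicate 1 and 60.8 CPM in replicate 2, and Mir503 had 49.9 CPM in replicate 1 and 30.2 CPM in replicate 2. Of the 3, Mir503 was higher in replicate 1 (log2 ratio 0.65), Mir322 was lower (-0.19) and Mir204 did not pass (0.02, exact 95% interval -0.26 to 0.31), with a median of 0.02. Mir210, the microRNA best known as induced by hypoxia, had 195 CPM in replicate 1 and 56.6 CPM in replicate 2 and was higher in replicate 1 (log2 ratio 1.71).

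**Figure D4:**
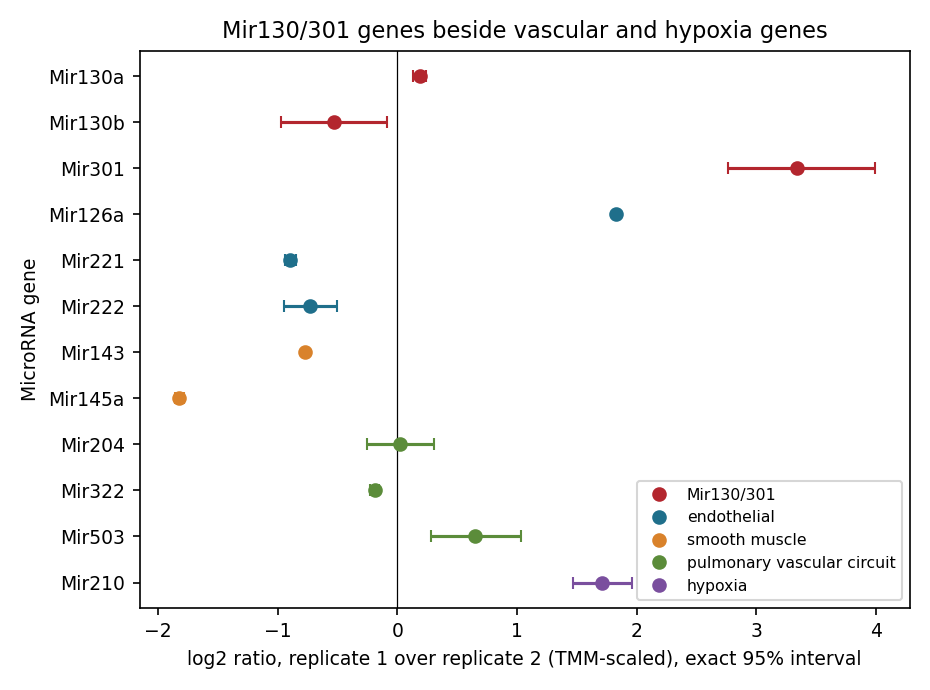
TMM-scaled log2 ratio of replicate 1 over replicate 2 for the 3 tested members of the family and the vascular and hypoxia genes, with exact 95% intervals as bars and colours by list; short bars are hidden behind their points. Mir301 at 3.34 lies beyond every gene of the other lists, whose highest is Mir126a at 1.83.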

How the data were processed

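The deposited tables, 1 for each library, give unnormalized read counts for each microRNA gene, in columns without regard to strand, on the strand of the gene and on the opposite strand. Build mm10 and annotation M21 are named in the deposited readme, and the aligner was not given in the sources used here. At the head of each table, 4 rows (unmapped, several loci, outside genes, ambiguous) stayed out of totals and tests. They came to 19.0%, 42.4%, 6.94% and 0% of 13233055 reads in replicate 1 and 17.5%, 43.2%, 7.11% and 0% of 8930289 reads in replicate 2.

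The strand column of the gene (column 3) was used. CPM is over all gene rows. Genes were kept by filterByExpr with a minimum count of 10, turned into a CPM cutoff to be met in both libraries. The kept genes were scaled with TMM in edgeR 4.0.16 (R 4.3.3). The binomial, Fisher, Poisson and Clopper-Pearson steps used scipy 1.17.1, with a threshold of 0.05. The binomial step was run on data simulated with counting error alone, which checks the code and not its fit to these libraries. edgeR's quasi-likelihood test was not used because 1 library against 1 leaves no residual degrees of freedom. All 2202 identifiers matched the annotation. The libraries were not duplicates (chi-square 830 per degree of freedom).

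The members and lists were chosen with earlier results of these data known. Named genes are the members, the listed genes, the 3 nearest genes to each member in log2(CPM + 0.5), and the genes next to each in mean level. Alternatives covered strand, scaling (DESeq2 1.42.0 size factors, totals), the filter, the denominator, the pseudocount and each replicate.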

Additional observations from a re-analysis of the deposited data

How the results depend on the processing

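No paired analysis was possible because the design holds 1 group, so no 2 groups share replicate numbers. The ratios of Mir130a and Mir301 kept their direction and passed the test under DESeq2 size factors, plain totals, every gene with 1 count or more, and counts without strand, with log2 ratios of 0.19 to 0.30 for Mir130a and 3.34 to 3.46 for Mir301. Mir130b kept its direction, but did not pass with plain totals (-0.46), every gene with 1 count (-0.41) or counts without strand (-0.48). Testing every gene with 1 count moved the median gene by 0.12 on the log2 scale, and 209 of 709 genes passed.

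Levels depend on what they are divided by. Over all reads, unassigned ones included, Mir130a averaged 517 CPM, Mir130b 8.25 CPM and the family 0.0542% of reads. With counts without strand they were 2194 CPM, 34.3 CPM and 0.230%. The members' own counts hardly differ there (7399 against 7398 for Mir130a in replicate 1), while the assigned total is 2906600 instead of 4186560 in replicate 1, with 1280090 reads in the ambiguous row instead of 0. Leaving out a replicate gives the other library's value: 1477 to 1767 CPM for Mir130a, 8.69 to 92.7 CPM for Mir301 and 21.7 to 29.9 CPM for Mir130b. It leaves no ratio between libraries. The nearest genes were the same 9 of 9 with log2(CPM + 1). With 25 counts in replicate 2, the interval of Mir301 is set by depth there.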

Other observations

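The contrast between Mir130b, with counts in both libraries, and its neighbour Mir301b, with none, was set beside other neighbours, a comparison chosen after the values were seen. Leaving out this pair, 112 pairs of microRNA genes lay on the same strand with a gap of at most 1000 bases and had at least 20 CPM in 1 of them. In 25 of these (22.3%) the partner had 0 counts in both libraries, but 17 of the 25 hold a Mir467 or Mir669 gene, and some of those genes enter several pairs. Without the Mir467 and Mir669 genes, 8 of 92 pairs (8.70%) had a partner at 0. These include Mir485 with Mir453, with 132 and 86 counts in replicates 1 and 2 against 0 and 0, and Mir92-2 with Mir19b-2, with 375 and 240 counts against 0 and 0. In 3 of the 8 the partner at 0 was Mir367, beside Mir302a, Mir302b and Mir302d.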
